A study of Mus musculus with 11 samples.

Results

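The genes described here encode axon guidance ligands and receptors: semaphorins, plexins, neuropilins, ephrins, Eph receptors, Slits, Robos, netrins, netrin-Gs, Dcc, the Unc5 receptors, neogenin and the Rgm proteins. They were chosen by gene symbol, and every gene row whose symbol fell in these families was kept. This gave 76 rows with 74 symbols out of 37991 rows in the RNA table. Efna5 and Ntng1 were each listed under a pair of Ensembl identifiers. RNA was sequenced from cultured neural stem cells taken from the frontal cortex of C57BL/6J mouse embryos at stage E14.5, with no genetic change named in the labels. The NSC group (3 libraries) was sampled at day 0 in proliferation medium. The Astrocyte group (3 libraries) had spent 4 days in DMEM with 1% N-2 supplement, 2 mM GlutaMAX and 1% fetal bovine serum. The Neuron group (3 libraries) had spent 4 days in Neurobasal with B-27 (2%) and GlutaMAX (2 mM), and the Oligodendrocyte group (2 libraries) 4 days in the same medium plus T3, a thyroid hormone, at 30 ng/mL. Each day 4 group is thus named after its medium, and which cells it held is known only from marker genes. The labels do not say whether libraries of a group came from separate cultures, so p-values measure only the spread between these libraries, which may be technical.

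Guidance proteins steer growing axons and migrating cells by attraction or repulsion. Semaphorins act through plexins, with neuropilins as partner receptors for most of the secreted class, and Slits act through Robos. Netrins attract through Dcc and repel through Unc5 receptors, while Rgm proteins and some netrins bind neogenin. Ephrins and Eph receptors sit on opposing cell surfaces and signal in both directions. In the brain the same proteins also act in progenitors and glia, where they guide the migration of oligodendrocyte precursors and affect myelination.

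Levels are given as CPM, the reads of a gene scaled to a common library total. Levels of different genes are compared as CPM per kilobase (kb) of exon. Differences between groups are log2 fold changes of CPM + 1 with their standard error (SE), tested with limma over the 13342 genes that reached 1 CPM in at least 2 libraries. A gene was called at a Benjamini-Hochberg adjusted p under 0.05. In bulk RNA, fewer cells of a type and less RNA per cell cannot be told apart, and in each comparison with NSC the medium and the 4 days in culture cannot be told apart.

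Depth was estimated at 49.3 to 66.2 M (mega) reads per library. Summed over 10 astrocyte markers, levels were 1681 to 1750 CPM in NSC, 14530 to 16080 in Astrocyte, 9329 to 10180 in Neuron and 3562 to 4007 in Oligodendrocyte. Over the 10 listed mature oligodendrocyte markers the sums were 73.92 to 82.28, 446.7 to 571.1, 2715 to 2897 and 2633 to 3019 CPM in the same order, and over 8 oligodendrocyte precursor markers 1880 to 2020, 758.2 to 844.4, 1684 to 2243 and 1359 to 1484 CPM. Young neuron markers summed to 101.4 to 106.7, 212.4 to 264.6, 244.3 to 346.1 and 325.7 to 365.3 CPM, and progenitor markers to 4984 to 5456, 3821 to 4280, 2560 to 3235 and 2798 to 2877 CPM. The summed ranges of the mature oligodendrocyte markers overlapped between Neuron and Oligodendrocyte, while the astrocyte marker sum was higher in Neuron. Sums do not show how single markers moved. Of the 10 astrocyte markers, 3 were called higher and 6 lower in Astrocyte than in Neuron (all genes called 62.2%). Of 8 progenitor markers, 4 were called higher and 4 lower than NSC in Astrocyte (all genes called 83.6%). The same counts held in Neuron (all genes called 83.1%). Microglial markers summed to at most 1.32 CPM and endothelial markers to at most 7.37 CPM in any library. Mesenchymal and mural markers, a list that shares Cspg4 with the precursor list, summed to 55.45 to 107 CPM. In each group 5 to 7 of these 9 genes had a mean under 1 CPM. The marker lists move between the same groups as the guidance genes, and their part in the results below was not tested. Neuron replicate 2 had the lowest value of its group in 44 of the 64 guidance genes tested (68.8%), against 49.6% of all genes tested. An excess was also present in Astrocyte replicate 3 (57.8% against 38.9%) and NSC replicate 3 (45.3% against 27.6%). This pattern was noticed after the values were seen, and its cause was not tested.

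Of the 76 rows, 64 passed the filter and 12 did not. The 12 were Epha1, Epha6, Epha8, Epha10, Ntn5, Robo3, Robo4, Sema3g, Sema4f, Slit3, the second Efna5 row and the second Ntng1 row, none of them above 1.37 CPM in any library. Of the 64 genes tested, 55 were called between Astrocyte and NSC, where 83.6% of all genes tested were called. Between Neuron and NSC 50 of 64 were called (all genes 83.1%), and between Oligodendrocyte and NSC 52 of 64 (all genes 80.2%). These shares lie near those of all genes. The 3 comparisons share the NSC libraries.

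Changes of at least 2-fold in these comparisons were mostly rises. In Astrocyte 21 guidance genes were called at least 2-fold above NSC (background 21.4% of all genes) and 5 at least 2-fold below (background 12.3%). In Neuron 21 rose (background 17.9%) and 7 fell (background 13.8%), and in Oligodendrocyte 24 rose (background 21.2%) and 5 fell (background 10.7%). The median log2 fold change of the 64 genes against NSC was 0.41 in Astrocyte, 0.263 in Neuron and 0.316 in Oligodendrocyte. Over all genes tested it was 0.153, 0.056 and 0.188. Median-of-ratios scaling moved each of these all-gene medians to at most 0.0159, so the changes below are best read relative to that shift. With quantile normalization the split in Astrocyte became 17 rises and 10 falls, and in Oligodendrocyte 18 rises and 9 falls.

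The 3 comparisons with NSC share its libraries, so a joint count is given beside the share of all genes with the same pattern. A group of 14 of the 64 genes was called at least 2-fold above NSC in all 3 media: Efnb3, Epha3, Epha4, Ephb2, Ephb6, Plxnb1, Rgma, Sema3d, Sema3e, Sema4a, Sema4d, Sema4g, Sema6b and Unc5c (background 11.8% of all genes). Epha2 and Sema3a were called at least 2-fold below NSC in all 3 (background 7.65%). A further 25 genes reached a called 2-fold change in none of the media (background 53.6%), among them Ntn1, Plxnb2 and Nrp1. The 2-fold limit was set on CPM + 1, which understates the change of low genes. Sema3f, among the 25, had means of 0.493 CPM in NSC and 1.91 CPM in Astrocyte. Of the 64 genes, the highest group mean was in Oligodendrocyte for 22, in Neuron for 18, in Astrocyte for 14 and in NSC for 10. The same count was not made over all genes, so it is not read as particular to the guidance genes. Over all genes the median log2 fold change of Oligodendrocyte was 0.188 against NSC, 0.153 against Neuron and 0.0401 against Astrocyte.

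**Figure D1:**
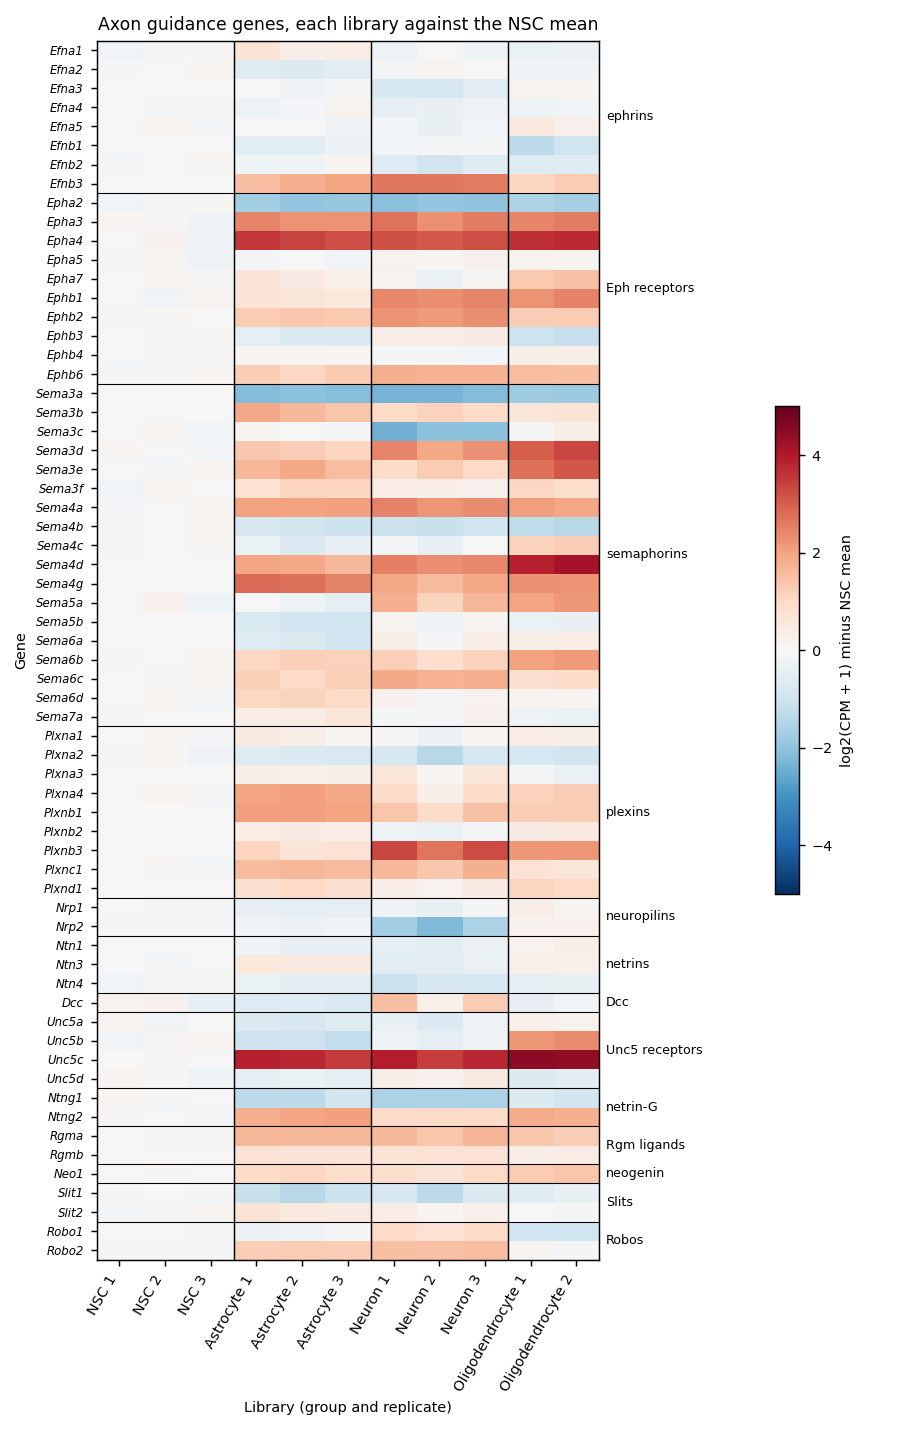
Heatmap of the 64 guidance genes tested (rows, in family blocks) in 11 libraries (columns, by group), as log2(CPM + 1) minus the NSC mean of that gene. Red rows such as Unc5c and Epha4 lie above NSC in all 8 day 4 libraries, and blue rows such as Sema3a and Epha2 lie below it in all 8.

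Among the netrins, Ntn1 is a secreted ligand of Dcc and the Unc5 receptors. Ntn1 measured 107, 109.6 and 111 CPM in NSC, 96.3, 84.2 and 84 in Astrocyte, 79.7, 76.1 and 89.9 in Neuron, and 123 and 133 in Oligodendrocyte. Ntn1 fell in Neuron (log2 fold change −0.42 with SE 0.0733, adjusted p = 1.29e-04) and in Astrocyte (log2 fold change −0.31 with SE 0.0733, adjusted p = 0.00144). In Oligodendrocyte its rise over NSC was small (log2 fold change 0.23 with SE 0.082, adjusted p = 0.0212), and that call was lost under median-of-ratios scaling, without NSC replicate 1 and without Oligodendrocyte replicate 2. The Oligodendrocyte libraries lay above every other library for this gene. Ntn4, a netrin that binds laminin, had means of 54.2 CPM in NSC, 38.9 in Astrocyte, 28.3 in Neuron and 40.7 in Oligodendrocyte. It fell in all 3 media, by 0.47, 0.91 and 0.40 on the log2 scale in Astrocyte, Neuron and Oligodendrocyte. Ntn3 stood at 6.47, 5.98 and 6.44 CPM in NSC, 9.6, 9.07 and 9.06 in Astrocyte, 3.88, 4.02 and 4.75 in Neuron, and 7.79 and 7.72 in Oligodendrocyte. Ntn3 overlaps Tbc1d24 on the same strand, a gene with a mean of 43.2 CPM, so its values are uncertain.

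The Unc5 receptors, which mediate repulsion by netrins, held the largest log2 fold change among the 64 genes. The libraries gave Unc5c 1.86, 2.04 and 1.89 CPM in NSC, 42.1, 39 and 31.8 in Astrocyte, 43.1, 30.8 and 38.8 in Neuron, and 64.1 and 61.8 in Oligodendrocyte. All 8 day 4 libraries lay above the NSC libraries, where the gene was near 2 CPM. Unc5c (ENSMUSG00000059921, mm9 chromosome 3, 141128528 to 141497888) rose in Oligodendrocyte (log2 fold change 4.45 with SE 0.131, adjusted p = 1.98e-12), in Astrocyte (log2 fold change 3.71 with SE 0.117, adjusted p = 2.35e-12) and in Neuron (log2 fold change 3.71 with SE 0.117, adjusted p = 2.80e-12). Astrocyte and Neuron did not differ detectably in Unc5c (difference 0.01, 95% interval −0.25 to 0.26), while Oligodendrocyte was above both.

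Unc5b (ENSMUSG00000020099, mm9 chromosome 10, 60225358 to 60294329) took a different course. For Unc5b the values were 9.1, 10.6 and 10.8 CPM in NSC, 4.5, 4.44 and 3.68 in Astrocyte, 8.5, 7.42 and 8.37 in Neuron, and 48.7 and 56.1 in Oligodendrocyte. The Oligodendrocyte libraries stood far above all others, and the Astrocyte libraries were the lowest. Against NSC, Unc5b rose in Oligodendrocyte (log2 fold change 2.26 with SE 0.108, adjusted p = 2.26e-10) and fell in Astrocyte (log2 fold change −1.10 with SE 0.0963, adjusted p = 1.14e-07). It was the only gene of the 64 called at least 2-fold in opposite directions against NSC (background 0.202% of all genes). The direct comparison of Oligodendrocyte with Astrocyte gave a log2 fold change of 3.36 with SE 0.108 and adjusted p = 1.19e-10.

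Unc5a, a further netrin receptor, had means of 3.89 CPM in NSC, 1.98 in Astrocyte, 2.64 in Neuron and 4.7 in Oligodendrocyte. Unc5d reached 1.35, 1.27 and 0.88 CPM in NSC, 0.58, 0.7 and 0.52 in Astrocyte, 1.72, 1.48 and 1.97 in Neuron, and 0.36 and 0.49 in Oligodendrocyte. Unc5d thus stayed under 2 CPM in every library. Dcc (ENSMUSG00000060534, mm9 chromosome 18, 71418392 to 72510723), the receptor for netrin attraction, varied between the Neuron libraries. Levels of Dcc were 8.58, 8.63 and 5.39 CPM in NSC, 4.42, 4.34 and 3.93 in Astrocyte, 22.6, 8.92 and 19 in Neuron, and 5.23 and 6.6 in Oligodendrocyte. Dcc was highest in the Neuron libraries, of which replicate 2 was the lowest. Astrocyte was below Neuron (log2 fold change −1.68 with SE 0.253, adjusted p = 6.68e-05), and the log2 difference was −2.05 without Neuron replicate 2. The called difference between Astrocyte and NSC (−0.68) was lost with a pseudocount of 5, with no filter on low values, without NSC replicate 1, without NSC replicate 2 and without Astrocyte replicate 3.

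Per kilobase of exon, the summed level of the 4 Unc5 receptors was 2.78 ± 0.0735 CPM per kb (SD, n = 3) in NSC, 3.18 ± 0.318 (n = 3) in Astrocyte and 4.08 ± 0.55 (n = 3) in Neuron. In Oligodendrocyte it was 12.8 ± 0.73 CPM per kb (SD, n = 2). Unc5b supplied 58.3% of the sum in NSC and 65.2% in Oligodendrocyte. Unc5c supplied the largest share in Astrocyte (61.9%) and in Neuron (48.2%). The leading Unc5 member was thus Unc5c in Astrocyte and Neuron and Unc5b in NSC and Oligodendrocyte.

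**Figure D2:**
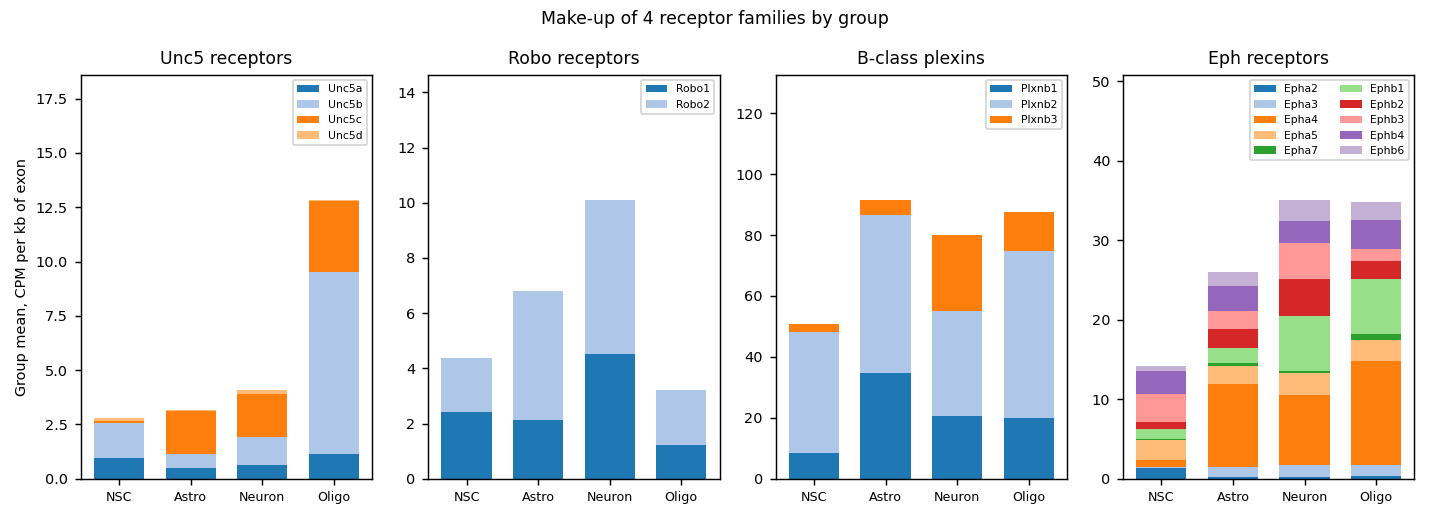
Group mean level, in CPM per kb of exon, stacked over the tested members of 4 receptor families (Unc5, Robo, B plexins, Eph), 1 bar for each group. The Unc5 bar is 12.8 CPM per kb in Oligodendrocyte against 2.78 in NSC, while the Robo bar is highest in Neuron.

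Slits are the secreted ligands of Robos. Slit1 measured 4.29, 4.15 and 3.99 CPM in NSC, 1.39, 0.94 and 1.43 in Astrocyte, 1.99, 1.07 and 2.1 in Neuron, and 2.34 and 2.95 in Oligodendrocyte. The NSC libraries were above all Astrocyte and Neuron libraries. Slit1 (ENSMUSG00000025020, mm9 chromosome 19, 41674747 to 41818155) fell in Astrocyte (log2 fold change −1.20 with SE 0.144, adjusted p = 3.33e-06). Its falls in Neuron and in Oligodendrocyte were also called, that in Oligodendrocyte not in every alternative. Slit2 had means of 1.84 CPM in NSC, 3.08 in Astrocyte, 2.31 in Neuron and 1.75 in Oligodendrocyte, and Slit3 did not pass the filter.

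Robo1 and Robo2, the Slit receptors, were far more abundant than their ligands per kilobase. The summed level of all 4 Robos, tested or not, was 4.49 ± 0.208 CPM per kb (SD, n = 3) in NSC. It was 6.84 ± 0.166 (n = 3) in Astrocyte, 10.2 ± 0.613 (n = 3) in Neuron and 3.30 ± 0.27 (n = 2) in Oligodendrocyte. The summed level of all 3 Slits was 0.772, 0.35, 0.442 and 0.534 CPM per kb in the same order. Robo1 stood at 40.7, 41.1 and 38.5 CPM in NSC, 32.9, 35.5 and 37 in Astrocyte, 80.2, 66 and 77.9 in Neuron, and 20.4 and 19.6 in Oligodendrocyte. Neuron was the highest group and Oligodendrocyte the lowest, with no overlap between them. Robo1 (ENSMUSG00000022883, mm9 chromosome 16, 72663394 to 73046340) was lower in Oligodendrocyte than in Neuron (log2 fold change −1.85 with SE 0.0858, adjusted p = 1.03e-09). Against NSC it rose in Neuron (log2 fold change 0.88 with SE 0.0767, adjusted p = 1.19e-07) and fell in Oligodendrocyte (log2 fold change −0.97 with SE 0.0858, adjusted p = 1.55e-07).

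The libraries gave Robo2 34.3, 34.2 and 30.6 CPM in NSC, 78.2, 79.9 and 79.6 in Astrocyte, 95.2, 91.8 and 97.3 in Neuron, and 36.7 and 30.9 in Oligodendrocyte. For Robo2 (ENSMUSG00000052516, mm9 chromosome 16, 73892551 to 74412070) the Astrocyte and Neuron libraries lay above all NSC and Oligodendrocyte libraries. It rose over NSC in Neuron (log2 fold change 1.5 with SE 0.07, adjusted p = 1.53e-10) and in Astrocyte (log2 fold change 1.24 with SE 0.07, adjusted p = 1.03e-09). Oligodendrocyte did not differ detectably from NSC (log2 difference 0.03, 95% interval −0.14 to 0.20), and was lower than Neuron (log2 fold change −1.47 with SE 0.0783, adjusted p = 3.54e-09) and lower than Astrocyte (log2 fold change −1.21 with SE 0.0783, adjusted p = 4.43e-08). Robo1 and Robo2 lie next to each other on chromosome 16, with a gap of 846211 bases.

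The secreted class 3 semaphorins moved in several directions. Sema3a (ENSMUSG00000028883, mm9 chromosome 5, 13125593 to 13602565), a repellent that acts through Nrp1 and A plexins, fell in every medium. For Sema3a the values were 51.3, 50.4 and 48.9 CPM in NSC, 10.4, 11.2 and 10.7 in Astrocyte, 9.19, 9.3 and 10.2 in Neuron, and 13.9 and 13.2 in Oligodendrocyte. The NSC libraries were all above 45 CPM and no day 4 library was above 15 CPM. The log2 fold changes were −2.28 with SE 0.0677 and adjusted p = 1.52e-12 in Neuron, −2.12 with SE 0.0677 and adjusted p = 2.59e-12 in Astrocyte and −1.81 with SE 0.0757 and adjusted p = 5.90e-11 in Oligodendrocyte.

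Sema3d and Sema3e flank Sema3a on chromosome 5 and rose in every medium. Sema3d reached 1.74, 1.6 and 1.43 CPM in NSC, 5.58, 4.99 and 4.41 in Astrocyte, 13.1, 8.86 and 11.8 in Neuron, and 20.0 and 24.9 in Oligodendrocyte. Levels of Sema3e were 0.59, 0.51 and 0.71 CPM in NSC, 4.11, 5.08 and 3.66 in Astrocyte, 2.01, 2.84 and 2.16 in Neuron, and 9.78 and 12.6 in Oligodendrocyte. Both were highest in Oligodendrocyte. Sema3d (ENSMUSG00000040254, mm9 chromosome 5, 12383166 to 12588943) rose over NSC in Oligodendrocyte (log2 fold change 3.17 with SE 0.146, adjusted p = 1.57e-10), and Oligodendrocyte exceeded Astrocyte (log2 fold change 1.96 with SE 0.146, adjusted p = 1.53e-07). Sema3e (ENSMUSG00000063531, mm9 chromosome 5, 14025276 to 14256689), which binds Plxnd1 without a neuropilin, was higher in Oligodendrocyte than in Neuron (log2 fold change 1.87 with SE 0.142, adjusted p = 1.06e-07). Its receptor Plxnd1 had means of 27.9 CPM in NSC, 51.9 in Astrocyte, 34.9 in Neuron and 58.2 in Oligodendrocyte. The gap between Sema3d and Sema3a is 536650 bases, and that between Sema3a and Sema3e is 422711 bases.

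Sema3c (ENSMUSG00000028780, mm9 chromosome 5, 17080099 to 17236086), a neuropilin ligand, was low in the Neuron libraries alone. Sema3c measured 13.1, 14.1 and 11.6 CPM in NSC, 13.7, 13.2 and 12.4 in Astrocyte, 1.62, 2.37 and 2.36 in Neuron, and 11.9 and 16.1 in Oligodendrocyte. None of the Neuron libraries reached the lowest value of any other group. Sema3c fell in Neuron against NSC (log2 fold change −2.17 with SE 0.124, adjusted p = 1.27e-09), and it was higher than Neuron in Oligodendrocyte (log2 fold change 2.26 with SE 0.139, adjusted p = 1.34e-08) and in Astrocyte (log2 fold change 2.19 with SE 0.124, adjusted p = 8.22e-09). Astrocyte and Oligodendrocyte did not differ detectably from NSC (0.02 and 0.10, 95% intervals −0.25 to 0.29 and −0.20 to 0.40). Sema3b stood at 0.39, 0.4 and 0.34 CPM in NSC, 4.05, 3.25 and 2.62 in Astrocyte, 1.77, 2.05 and 1.66 in Neuron, and 1.11 and 1.23 in Oligodendrocyte. Sema3b (ENSMUSG00000057969, mm9 chromosome 9, 107500005 to 107511560) was lower in Oligodendrocyte than in Astrocyte (log2 fold change −0.98 with SE 0.125, adjusted p = 2.39e-05). Sema3f, a ligand of Nrp2 that lies 72273 bases from Sema3b, had means of 0.493 CPM in NSC, 1.91 in Astrocyte, 0.84 in Neuron and 1.91 in Oligodendrocyte.

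The neuropilins are the binding partners of these ligands. The libraries gave Nrp2 34.9, 34.6 and 31.3 CPM in NSC, 29.7, 27.5 and 29.3 in Astrocyte, 9.36, 6.4 and 10.4 in Neuron, and 39 and 38.6 in Oligodendrocyte. Nrp2 (ENSMUSG00000025969, mm9 chromosome 1, 62749859 to 62865269) was lowest in the Neuron libraries, as Sema3c was, with no overlap with any other group. It fell in Neuron against NSC (log2 fold change −1.85 with SE 0.123, adjusted p = 6.41e-09). It was higher than Neuron in Oligodendrocyte (log2 fold change 2.06 with SE 0.138, adjusted p = 3.16e-08) and in Astrocyte (log2 fold change 1.64 with SE 0.123, adjusted p = 1.03e-07). Without Neuron replicate 2 these 3 values were −1.67, 1.87 and 1.46. For Nrp1 the values were 20.4, 21.3 and 19.8 CPM in NSC, 15.2, 14.7 and 14.4 in Astrocyte, 17.9, 15.8 and 19.8 in Neuron, and 26 and 22.7 in Oligodendrocyte. Nrp1 differed less between groups, with Astrocyte the lowest and Oligodendrocyte the highest. Its level in Oligodendrocyte exceeded that in Astrocyte (log2 fold change 0.68 with SE 0.094, adjusted p = 4.57e-05).

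Among the membrane-bound class 4 semaphorins, Sema4d and Sema4g rose in every medium and Sema4b fell. Sema4d reached 3.16, 3.09 and 3.1 CPM in NSC, 15, 14.2 and 11.7 in Astrocyte, 22.3, 19.8 and 20.6 in Neuron, and 59.5 and 71.7 in Oligodendrocyte. Sema4d (ENSMUSG00000021451, mm9 chromosome 13, 51796615 to 51889116), a ligand of B plexins known from oligodendrocytes, had its highest values in Oligodendrocyte and its lowest in NSC, with no overlap between groups. It rose in Oligodendrocyte against NSC (log2 fold change 4.01 with SE 0.108, adjusted p = 9.24e-13) and was above Astrocyte (log2 fold change 2.19 with SE 0.108, adjusted p = 4.00e-09). Levels of Sema4g were 9.61, 10.1 and 9.96 CPM in NSC, 77, 73 and 60.04 in Astrocyte, 41.1, 31.5 and 40.8 in Neuron, and 52.3 and 50.7 in Oligodendrocyte. Sema4g (ENSMUSG00000025207, mm9 chromosome 19, 45063591 to 45077887) was highest in Astrocyte (log2 fold change 2.70 with SE 0.105, adjusted p = 2.11e-11 against NSC). Sema4b measured 39.3, 40.1 and 43.5 CPM in NSC, 22.3, 21.3 and 19 in Astrocyte, 19.1, 18.5 and 20.2 in Neuron, and 16.3 and 15.1 in Oligodendrocyte. Sema4b (ENSMUSG00000030539, mm9 chromosome 7, 87331727 to 87371280) was highest in NSC and fell in Oligodendrocyte (log2 fold change −1.33 with SE 0.0837, adjusted p = 4.22e-09).

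Sema4c, a ligand of Plxnb2, was high in the Oligodendrocyte libraries. Sema4c stood at 14.4, 14.9 and 15.9 CPM in NSC, 11.9, 8.93 and 10.9 in Astrocyte, 14.4, 11.1 and 15.3 in Neuron, and 33.6 and 36.9 in Oligodendrocyte. The Oligodendrocyte libraries were above 30 CPM and all others were below 20 CPM. Sema4c rose against NSC there (log2 fold change 1.17 with SE 0.13, adjusted p = 1.65e-06) and fell in Astrocyte (log2 fold change −0.48 with SE 0.117, adjusted p = 0.00178). Sema4a, scarce in NSC, had means of 0.363 CPM in NSC, 4.55 in Astrocyte, 5.99 in Neuron and 4.49 in Oligodendrocyte.

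Sema5a (ENSMUSG00000022231, mm9 chromosome 15, 32174568 to 32626096), a transmembrane semaphorin that binds Plxnb3, separated the media into a low pair and a high pair. The libraries gave Sema5a 51.8, 59.2 and 42.5 CPM in NSC, 50.5, 42.6 and 35.8 in Astrocyte, 179, 111 and 162 in Neuron, and 199 and 232 in Oligodendrocyte. NSC and Astrocyte were low, and Neuron and Oligodendrocyte were high with no overlap with the low pair. Oligodendrocyte exceeded Astrocyte (log2 fold change 2.31 with SE 0.188, adjusted p = 3.66e-07) and Astrocyte was below Neuron (log2 fold change −1.77 with SE 0.168, adjusted p = 9.52e-07). That second log2 difference was −1.98 without Neuron replicate 2. The called difference between Oligodendrocyte and Neuron (0.54) was lost in 4 of the alternatives tried, among them median-of-ratios scaling, no filter on low values and leaving out Oligodendrocyte replicate 2. Sema5b had means of 65.2 CPM in NSC, 34.1 in Astrocyte, 66.9 in Neuron and 50.8 in Oligodendrocyte.

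Sema6d was the leading semaphorin per kilobase of exon in every group, with 24.2% to 52.6% of the family's summed level. For Sema6d the values were 217, 234 and 200.3 CPM in NSC, 448, 473 and 418 in Astrocyte, 251, 204 and 242 in Neuron, and 231 and 230.4 in Oligodendrocyte. The Astrocyte libraries were above all others. Sema6d (ENSMUSG00000027200, mm9 chromosome 2, 123915705 to 124493506), a ligand of Plxna1, rose in Astrocyte (log2 fold change 1.04 with SE 0.0836, adjusted p = 4.78e-08) and was lower in Oligodendrocyte than in Astrocyte (log2 fold change −0.95 with SE 0.0935, adjusted p = 2.24e-06). Sema6a reached 77.9, 77.3 and 75.6 CPM in NSC, 49.1, 46.1 and 40.6 in Astrocyte, 95.4, 72.8 and 97.2 in Neuron, and 94.2 and 96.4 in Oligodendrocyte. Sema6a, a ligand of Plxna2 and Plxna4, was lowest in Astrocyte (log2 fold change −0.76 with SE 0.0982, adjusted p = 7.00e-06 against NSC). Sema6b had means of 2.73 CPM in NSC, 7.16 in Astrocyte, 6.79 in Neuron and 14.7 in Oligodendrocyte, and Sema6c 3.54 CPM in NSC, 8.85 in Astrocyte, 15 in Neuron and 7.34 in Oligodendrocyte. Levels of Sema7a were 2.55, 2.35 and 2.41 CPM in NSC, 3.32, 3.46 and 4.24 in Astrocyte, 2.23, 2.23 and 2.96 in Neuron, and 1.87 and 1.74 in Oligodendrocyte. Sema7a, the GPI-anchored semaphorin that binds Plxnc1, stayed under 5 CPM in every library.

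Plexins are the signalling receptors of the semaphorins. Plxnb2 led the family in every group, with 30.5% to 51.0% of the summed level per kilobase. Plxnb2 measured 301, 307 and 313 CPM in NSC, 402, 412 and 390.4 in Astrocyte, 262, 245 and 296 in Neuron, and 411 and 436 in Oligodendrocyte. Oligodendrocyte and Astrocyte were above NSC (log2 fold change 0.46 with SE 0.0776, adjusted p = 8.95e-05 and log2 fold change 0.39 with SE 0.0694, adjusted p = 1.54e-04). The summed level of 9 plexins was 77.99 ± 1.21 CPM per kb (SD, n = 3) in NSC, 131.26 ± 4.66 (n = 3) in Astrocyte, 113.89 ± 17.3 (n = 3) in Neuron and 120.89 ± 0.909 (n = 2) in Oligodendrocyte. Plxnb1, a receptor of Sema4d, had means of 80.5 CPM in NSC, 332 in Astrocyte, 197 in Neuron and 189.7 in Oligodendrocyte, and rose in all 3 media.

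Plxnb3 (ENSMUSG00000031385, mm9 chromosome X, 71002429 to 71017853), the receptor of Sema5a, had its highest level in Neuron. Plxnb3 stood at 17.9, 17.8 and 17.2 CPM in NSC, 37.7, 28.1 and 29.8 in Astrocyte, 186, 119 and 179.5 in Neuron, and 81.9 and 85.1 in Oligodendrocyte. No library of Neuron overlapped with another group, and Neuron replicate 2 was the lowest of the 3. Plxnb3 rose in Neuron (log2 fold change 3.10 with SE 0.143, adjusted p = 1.36e-10) and was lower in Astrocyte than in Neuron (log2 fold change −2.29 with SE 0.143, adjusted p = 2.01e-08). Without Neuron replicate 2 these log2 differences were 3.30 and −2.50. It was also above NSC in Oligodendrocyte (log2 fold change 2.18 with SE 0.161, adjusted p = 2.23e-08). Plxnb3 and Plxna3 lie 556552 bases apart on the X chromosome, and Plxna3 had means of 33.6 CPM in NSC, 40.8 in Astrocyte, 46.2 in Neuron and 29.2 in Oligodendrocyte.

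The libraries gave Plxnc1 26.8, 27.8 and 24.8 CPM in NSC, 81.2, 86.9 and 81.3 in Astrocyte, 85.6, 69 and 93.3 in Neuron, and 43.8 and 40.9 in Oligodendrocyte. Plxnc1 (ENSMUSG00000074785, mm9 chromosome 10, 94253617 to 94407212), the Sema7a receptor, was higher in Astrocyte and Neuron than in Oligodendrocyte, whose difference from Astrocyte was log2 fold change −0.96 with SE 0.104, adjusted p = 5.38e-06. For Plxna4 the values were 3.09, 3.5 and 2.88 CPM in NSC, 14 to 16 across the 3 Astrocyte libraries, 6.88, 4.13 and 6.92 in Neuron, and 8.29 and 8.74 in Oligodendrocyte. Plxna4 (ENSMUSG00000029765, mm9 chromosome 6, 32094565 to 32538192), a receptor for Sema3a with Nrp1 and for Sema6a, was highest in Astrocyte. It exceeded Neuron there (log2 fold change 1.25 with SE 0.14, adjusted p = 4.31e-06). Plxna1 had means of 96.9 CPM in NSC, 122 in Astrocyte, 94.5 in Neuron and 122 in Oligodendrocyte. Plxna2 had means of 84.7 CPM in NSC, 51.8 in Astrocyte, 42.1 in Neuron and 44.4 in Oligodendrocyte and fell in all 3 media. Its called difference between Astrocyte and Neuron (0.31) was lost in 16 of the alternatives tried.

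**Figure D3:**
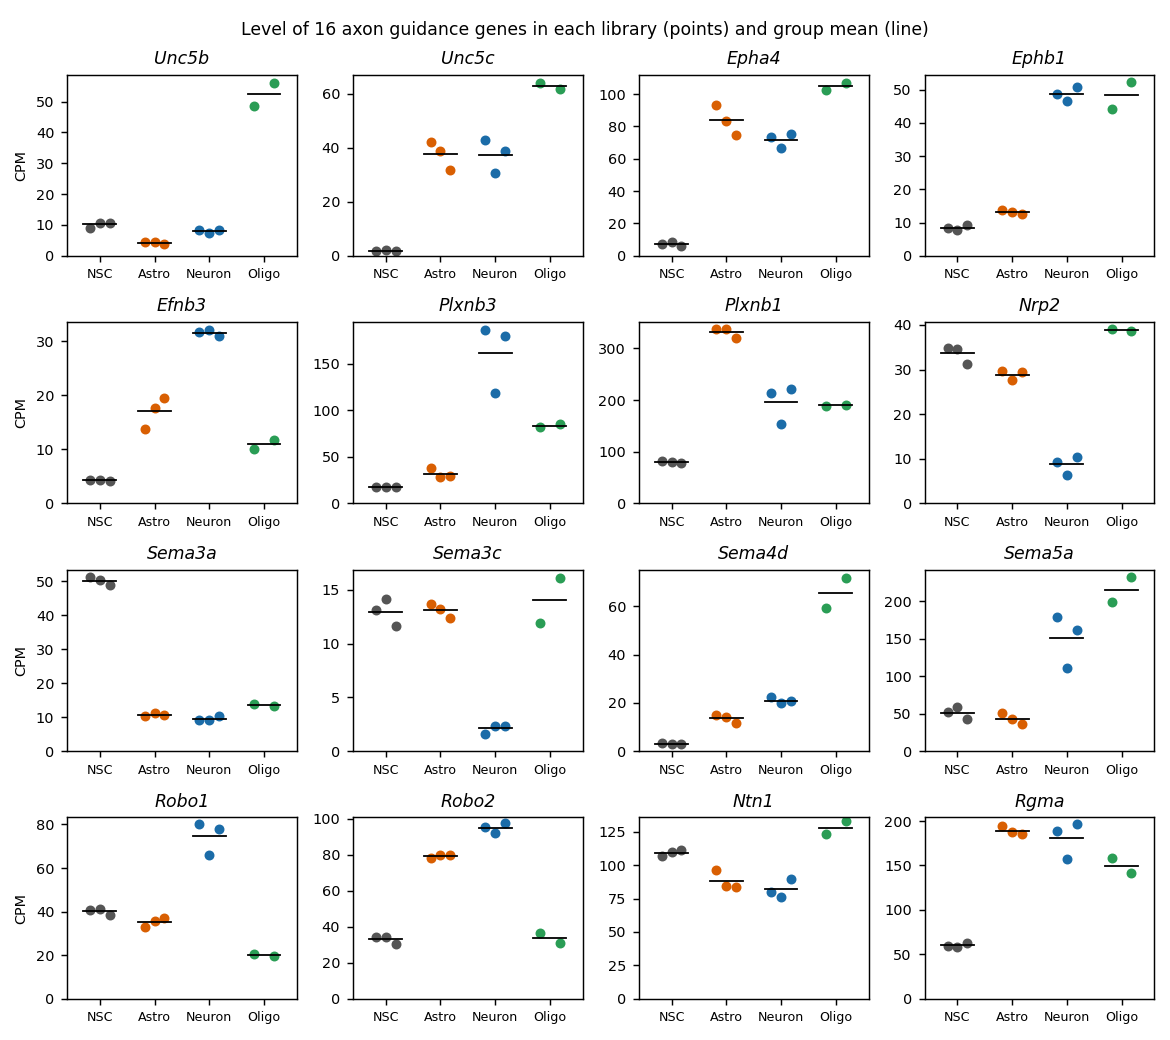
CPM in each of the 11 libraries (points) with the group mean (line) for 16 guidance genes, 1 panel each with its own axis from 0. Unc5b is high in the Oligodendrocyte libraries alone, Nrp2 and Sema3c are low in the Neuron libraries alone, and Sema3a is high in the NSC libraries alone.

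The ephrins, ligands held on the cell surface, were led by different genes before and after the change of medium. Efnb1 supplied 33.5% of the summed ephrin level per kilobase in NSC. Efnb3 supplied 26.4% in Astrocyte, 40.9% in Neuron and 21.7% in Oligodendrocyte. Efnb3 reached 4.29, 4.31 and 4.2 CPM in NSC, 13.8, 17.7 and 19.5 in Astrocyte, 31.7, 32.1 and 31 in Neuron, and 10.1 and 11.7 in Oligodendrocyte. All day 4 libraries were above NSC, and Neuron was the highest group. Efnb3 (ENSMUSG00000003934, mm9 chromosome 11, 69367594 to 69373707), a transmembrane ephrin of the B class, rose in Neuron (log2 fold change 2.63 with SE 0.104, adjusted p = 2.60e-11), and was lower in Oligodendrocyte than in Neuron (log2 fold change −1.45 with SE 0.116, adjusted p = 1.58e-07).

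Levels of Efnb1 were 21.8, 22 and 22.8 CPM in NSC, 15, 14.7 and 18.1 in Astrocyte, 19.9, 21.2 and 20.9 in Neuron, and 8.35 and 10.5 in Oligodendrocyte. Efnb1 (ENSMUSG00000031217, mm9 chromosome X, 96331469 to 96344330) was lowest in Oligodendrocyte and fell there against NSC (log2 fold change −1.16 with SE 0.104, adjusted p = 1.80e-07). Efnb2 had means of 21.4 CPM in NSC, 20.1 in Astrocyte, 12.6 in Neuron and 13.5 in Oligodendrocyte. The A ephrins are anchored to the membrane by GPI. Efna1 measured 1.27, 1.6 and 1.58 CPM in NSC, 2.98, 2.04 and 2.21 in Astrocyte, 1.1, 1.5 and 1.16 in Neuron, and 0.95 and 1.01 in Oligodendrocyte. Efna1, Efna3 and Efna4 lie in a row on chromosome 3, with gaps of 32757 and 10425 bases. Efna3 had means of 4.72 CPM in NSC, 4.37 in Astrocyte, 2.44 in Neuron and 5.28 in Oligodendrocyte, and Efna4 3.91 CPM in NSC, 3.75 in Astrocyte, 2.77 in Neuron and 3.33 in Oligodendrocyte. Efna3 fell in Neuron against NSC (−0.74). Efna2 had means of 6.22 CPM in NSC, 3.78 in Astrocyte, 6.26 in Neuron and 5.4 in Oligodendrocyte, and Efna5 0.773 CPM in NSC, 0.693 in Astrocyte, 0.547 in Neuron and 1.29 in Oligodendrocyte.

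Of the 10 Eph receptors tested, 4 rose at least 2-fold against NSC in Astrocyte (background 21.4% of all genes), 5 in Neuron (background 17.9%) and 6 in Oligodendrocyte (background 21.2%). The summed level of all 14 Eph receptors, tested or not, was 14.3 ± 0.181 CPM per kb of exon (SD, n = 3) in NSC. It was 26.1 ± 1.57 (n = 3) in Astrocyte, 35.2 ± 1.41 (n = 3) in Neuron and 35.01 ± 1.14 (n = 2) in Oligodendrocyte. Ephb3 supplied the largest share in NSC (24.5%) and Epha4 in each medium at day 4 (39.8%, 25.3% and 37.2%). Epha4 stood at 7.02, 8.42 and 6.22 CPM in NSC, 93.5, 83.5 and 74.9 in Astrocyte, 73.6, 66.8 and 75.1 in Neuron, and 103 and 107 in Oligodendrocyte. Epha4 (ENSMUSG00000026235, mm9 chromosome 1, 77363760 to 77511663), a receptor that binds both ephrin classes, lay above 60 CPM in all day 4 libraries and under 10 CPM in NSC. It rose in Oligodendrocyte (log2 fold change 3.69 with SE 0.111, adjusted p = 2.30e-12), in Astrocyte (log2 fold change 3.37 with SE 0.0989, adjusted p = 1.11e-12) and in Neuron (log2 fold change 3.15 with SE 0.0989, adjusted p = 2.56e-12).

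The libraries gave Epha3 1.64, 1.57 and 1.18 CPM in NSC, 12.2, 10.6 and 10.5 in Astrocyte, 15.2, 10.9 and 13.6 in Neuron, and 12.2 and 13.5 in Oligodendrocyte. Epha3 (ENSMUSG00000052504, mm9 chromosome 16, 63543364 to 63863984) rose in Astrocyte (log2 fold change 2.30 with SE 0.118, adjusted p = 3.60e-10). It was also called at least 2-fold above NSC in Neuron and Oligodendrocyte, and was called between none of the day 4 media. Its 95% intervals were −0.48 to 0.03 for Astrocyte minus Neuron and −0.32 to 0.25 for Oligodendrocyte minus Neuron. For Epha2 the values were 5.54, 6.52 and 6.49 CPM in NSC, 1.16, 0.88 and 0.91 in Astrocyte, 0.67, 0.9 and 0.8 in Neuron, and 1.43 and 1.25 in Oligodendrocyte. Epha2 (ENSMUSG00000006445, mm9 chromosome 4, 140857155 to 140885299) was the only Eph receptor called at least 2-fold below NSC in all 3 media. It fell in Neuron (log2 fold change −2.0 with SE 0.0948, adjusted p = 1.71e-10), in Astrocyte (log2 fold change −1.86 with SE 0.0948, adjusted p = 3.49e-10) and in Oligodendrocyte (log2 fold change −1.62 with SE 0.106, adjusted p = 6.58e-09).

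Ephb1 reached 8.34, 7.7 and 9.38 CPM in NSC, 13.9, 13.3 and 12.7 in Astrocyte, 48.7, 46.7 and 50.8 in Neuron, and 44.2 and 52.3 in Oligodendrocyte. Ephb1 (ENSMUSG00000032537, mm9 chromosome 9, 101824458 to 102257023) was high in Neuron and Oligodendrocyte and low in NSC and Astrocyte, with no overlap between the pairs. Astrocyte was below Neuron (log2 fold change −1.80 with SE 0.0837, adjusted p = 1.37e-09), while Oligodendrocyte minus Neuron had a 95% interval of −0.22 to 0.18. Levels of Ephb3 were 22.8, 22.5 and 24.1 CPM in NSC, 16.7, 14.2 and 13.9 in Astrocyte, 29, 30.6 and 30.7 in Neuron, and 10.8 and 9.81 in Oligodendrocyte. Ephb3 (ENSMUSG00000005958, mm9 chromosome 16, 21204828 to 21223378) rose in Neuron (log2 fold change 0.37 with SE 0.0779, adjusted p = 6.43e-04) and fell in Oligodendrocyte (log2 fold change −1.09 with SE 0.0871, adjusted p = 5.15e-08), with Oligodendrocyte below Neuron (log2 fold change −1.46 with SE 0.0871, adjusted p = 1.05e-08). Ephb2 had means of 11.7 CPM in NSC, 30.5 in Astrocyte, 58.8 in Neuron and 29.2 in Oligodendrocyte, and rose in all 3 media. Epha5 had means of 41.2 CPM in NSC, 38.9 in Astrocyte, 46 in Neuron and 45.5 in Oligodendrocyte and was called against NSC in none of the media. Epha7 had means of 2.11 CPM in NSC, 3.22 in Astrocyte, 2.04 in Neuron and 7.12 in Oligodendrocyte, and Ephb6 2.27 CPM in NSC, 6.45 in Astrocyte, 9.98 in Neuron and 8.35 in Oligodendrocyte. Ephb4 had means of 13.6 CPM in NSC, 14.8 in Astrocyte, 12.7 in Neuron and 16.9 in Oligodendrocyte.

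Neogenin and the Rgm ligands rose together. Neo1 measured 103, 107 and 102 CPM in NSC, 198, 216 and 190.5 in Astrocyte, 191, 161 and 207 in Neuron, and 249 and 269.9 in Oligodendrocyte. Neo1, the receptor of Rgm proteins, rose in Oligodendrocyte (log2 fold change 1.31 with SE 0.0936, adjusted p = 1.62e-08), in Astrocyte (log2 fold change 0.95 with SE 0.0837, adjusted p = 1.28e-07) and in Neuron (log2 fold change 0.83 with SE 0.0837, adjusted p = 5.34e-07). Rgma stood at 58.9, 58.4 and 63.1 CPM in NSC, 194, 187 and 185 in Astrocyte, 189, 157 and 197 in Neuron, and 159 and 141 in Oligodendrocyte. Rgma (ENSMUSG00000070509, mm9 chromosome 7, 80520406 to 80564785), its GPI-anchored ligand, rose in Astrocyte (log2 fold change 1.64 with SE 0.0803, adjusted p = 2.28e-10), Neuron (log2 fold change 1.57 with SE 0.0803, adjusted p = 3.85e-10) and Oligodendrocyte (log2 fold change 1.30 with SE 0.0898, adjusted p = 1.12e-08). All day 4 libraries were above all NSC libraries for both genes. Rgma overlaps A730056A06Rik on the opposite strand, a gene with a mean of 8.12 CPM, and whether counting used the strand is not given in the sources used here. Rgmb had means of 12.9 CPM in NSC, 21.1 in Astrocyte, 21.6 in Neuron and 16.8 in Oligodendrocyte, and rose in all 3 media, with the call in Oligodendrocyte lost under quantile normalization.

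The netrin-Gs, GPI-anchored proteins that bind the Lrrc4 family on partner cells, moved apart. The libraries gave Ntng2 1.27, 1.19 and 1.01 CPM in NSC, 6.68, 7.48 and 7.88 in Astrocyte, 3.19, 3.21 and 3.14 in Neuron, and 6.84 and 6.36 in Oligodendrocyte. Ntng2 (ENSMUSG00000035513, mm9 chromosome 2, 29050061 to 29108525) was highest in Astrocyte, with a mean of 7.35 CPM against 3.18 CPM in Neuron. On the CPM + 1 scale it exceeded Neuron there by just under 2-fold (log2 fold change 1.00 with SE 0.0846, adjusted p = 3.28e-07). It overlaps 6530402F18Rik on the same strand. That gene had a mean of 4.85 CPM against 4.39 CPM for Ntng2, so the Ntng2 values are uncertain. For Ntng1 the values were 2.55, 2.09 and 2.39 CPM in NSC, 0.35, 0.33 and 0.79 in Astrocyte, 0.12, 0.15 and 0.13 in Neuron, and 1.06 and 0.79 in Oligodendrocyte. Ntng1 (ENSMUSG00000059857, mm9 chromosome 3, 109582958 to 109938426) was highest in NSC and fell in Astrocyte (log2 fold change −1.18 with SE 0.116, adjusted p = 4.07e-07). Its falls in Neuron, at least 2-fold, and in Oligodendrocyte were also called.

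Between the day 4 media the 2-fold differences were fewer. Between Astrocyte and Neuron 49 of the 64 genes were called (all genes 62.2%), of which 3 were at least 2-fold higher in Astrocyte (background 6.39%) and 6 at least 2-fold lower (background 2.95%). The higher genes were Sema3c, Nrp2 and Plxna4, and the lower were Plxnb3, Ephb1, Sema5a, Dcc, Robo1 and Sema3d. The split was 3 higher and 10 lower under median-of-ratios scaling, 3 and 12 with quantile normalization, and 4 and 8 without Neuron replicate 2. The median log2 fold change was 0.0898 for the guidance genes and 0.105 for all genes.

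Between Oligodendrocyte and Astrocyte 45 of 64 were called (all genes 52.2%), with 9 at least 2-fold higher (background 4.53%) and 1, Robo2, at least 2-fold lower (background 3.41%). The 9 were Unc5b, Sema5a, Sema4d, Sema3d, Ephb1, Sema4c, Plxnb3, Sema3e and Sema6a. With quantile normalization the split was 9 and 3. The median log2 fold change was 0.122 for the guidance genes and 0.0401 for all genes.

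The Oligodendrocyte and Neuron media differ by the added T3 alone, per the labels' protocols. Here 52 of 64 genes were called (all genes 67.5%), with 8 at least 2-fold higher in Oligodendrocyte (background 8.96%) and 6 at least 2-fold lower (background 3.58%). The higher genes were Unc5b, Sema3c, Nrp2, Sema3e, Sema4d, Epha7, Sema4c and Sema6b, and the lower were Robo1, Robo2, Ephb3, Efnb3, Dcc and Efnb1. The largest of these was Unc5b, with a log2 fold change of 2.55 with SE 0.108 and adjusted p = 4.51e-10. By family, 5 of 18 semaphorins were at least 2-fold higher and none at least 2-fold lower, while both Robos tested were lower. The split was 7 higher and 10 lower under median-of-ratios scaling, 7 and 11 with quantile normalization, and 7 and 9 without Neuron replicate 2. The median log2 fold change was 0.288 for the guidance genes and 0.153 for all genes. Astrocyte markers summed to 9329 to 10180 CPM in Neuron and 3562 to 4007 CPM in Oligodendrocyte. Of 8 oligodendrocyte precursor markers, 0 were called higher and 6 lower in Oligodendrocyte than in Neuron (all genes called 67.5%). For the 8 progenitor markers these counts were 3 and 5. The part of these marker lists in the differences between the 2 media was not tested.

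**Figure D4:**
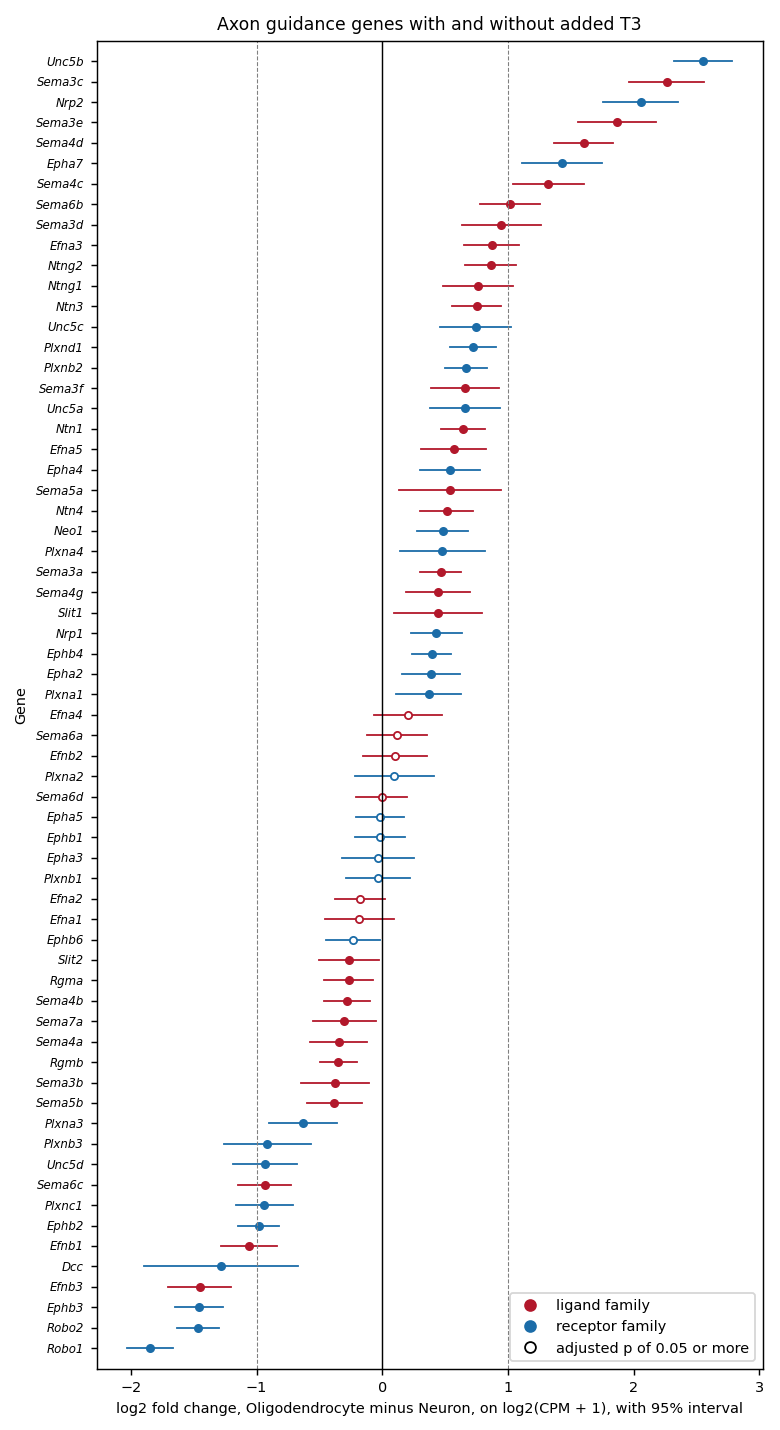
Log2 fold change of Oligodendrocyte minus Neuron for the 64 genes tested, with 95% intervals, ligands in red and receptors in blue, open where the adjusted p was 0.05 or more. Unc5b (2.55), Sema3c (2.26) and Nrp2 (2.06) lie to the right of the dashed 2-fold lines, and Robo1 (−1.85) and Robo2 (−1.47) to the left.

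Thyroid hormone receptors bind DNA at repeats of AGGTCA, so the 250 bases before the start sites were searched for these letters on both strands, in RefSeq promoters of GRCm38.p6. Of the 74 symbols, 63 matched, with 81 promoters. The letters were in 11 of the 81 (13.6%), against 14.0% of all 32851 promoters. Among genes at least 2-fold higher in Oligodendrocyte than Neuron they were in 2 of 13 promoters from 8 genes, in Sema4d and Sema6b. Among those at least 2-fold lower they were in 0 of 6 promoters, which came from 4 genes. These 4 were Efnb1, Ephb3, Robo1 and Robo2, while Dcc and Efnb3 had no matched promoter and were not searched. A match is a description of the sequence and not a site, and no match says only that these letters are not in this window. The promoter of the gene with the largest difference and both promoters with a match are shown, 5′ to 3′ on the strand of the gene, with AGGTCA or its reverse complement TGACCT in capitals. Unc5b lies at chr10:60831582-60831831 (− strand), Sema4d at chr13:51756684-51756933 and Sema6b at chr17:56133853-56134102 (both − strand).
Unc5b: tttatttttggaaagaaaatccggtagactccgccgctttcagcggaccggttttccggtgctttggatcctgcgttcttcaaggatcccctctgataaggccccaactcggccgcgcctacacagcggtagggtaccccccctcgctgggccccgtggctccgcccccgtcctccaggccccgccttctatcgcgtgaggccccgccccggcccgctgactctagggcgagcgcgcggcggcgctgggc
Sema4d: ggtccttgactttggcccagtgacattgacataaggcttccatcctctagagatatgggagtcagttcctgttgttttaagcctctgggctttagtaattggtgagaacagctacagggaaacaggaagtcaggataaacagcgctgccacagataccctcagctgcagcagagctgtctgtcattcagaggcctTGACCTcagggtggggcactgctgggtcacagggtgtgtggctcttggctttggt
Sema6b: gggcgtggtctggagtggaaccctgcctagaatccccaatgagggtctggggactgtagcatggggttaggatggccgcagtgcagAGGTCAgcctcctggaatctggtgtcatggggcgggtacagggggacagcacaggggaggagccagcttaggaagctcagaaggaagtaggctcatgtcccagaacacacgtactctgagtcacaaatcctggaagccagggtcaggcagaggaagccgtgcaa
The match begins 55 bases before the start in Sema4d and 164 bases before it in Sema6b. The Sema4d promoter shown is 1 of 3 listed for that gene, and the Sema6b promoter 1 of 2.

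In all, 13 of the 64 genes were called in opposite directions against NSC in a pair of media (background 7.78% of all genes): Dcc, Efna1, Ephb3, Nrp1, Ntn1, Ntn3, Plxnb2, Robo1, Sema4c, Sema6a, Sema7a, Unc5b and Unc5d. For 4 of them, Ephb3, Robo1, Sema4c and Unc5b, opposite calls were kept in every alternative analysis. For the other 9 at least 1 of the opposing calls was lost in some alternative.

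Of 52 listed transducers that act downstream of guidance receptors, 51 were tested. In Astrocyte 9 rose and 6 fell at least 2-fold against NSC (background 21.4% and 12.3% of all genes). In Neuron 9 rose and 6 fell (background 17.9% and 13.8%), and in Oligodendrocyte 11 rose and 7 fell (background 21.2% and 10.7%). Between the day 4 media the counts of higher and lower genes were 2 and 5 for Astrocyte against Neuron (background 6.39% and 2.95%), 4 and 1 for Oligodendrocyte against Neuron (background 8.96% and 3.58%), and 5 and 1 for Oligodendrocyte against Astrocyte (background 4.53% and 3.41%). Dpysl4, a collapsin response mediator, rose in Oligodendrocyte (log2 fold change 3.54 with SE 0.104, adjusted p = 1.99e-12), and Pak3, a kinase, rose in Neuron (log2 fold change 2.94 with SE 0.122, adjusted p = 4.39e-11). The largest falls were those of Vav3 (log2 fold change −2.79 with SE 0.0735, adjusted p = 7.82e-13, Oligodendrocyte against NSC), and of Chn2 and Mical2 (log2 fold change −2.08 with SE 0.0793, adjusted p = 2.57e-10 and log2 fold change −1.93 with SE 0.153, adjusted p = 1.67e-07, Astrocyte against Neuron).

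Of 30 listed co-receptors and alternative ligands, 24 were tested. Against NSC 7 rose and 5 fell at least 2-fold in Astrocyte (background 21.4% and 12.3% of all genes), 7 rose and 3 fell in Neuron (background 17.9% and 13.8%), and 8 rose and 3 fell in Oligodendrocyte (background 21.2% and 10.7%). In Astrocyte against Neuron 2 were higher and 2 lower (background 6.39% and 2.95%). In Oligodendrocyte 4 were higher and 0 lower against Neuron (background 8.96% and 3.58%), and 4 were higher and 0 lower against Astrocyte (background 4.53% and 3.41%). Met, the HGF receptor and a partner of B plexins, rose most (log2 fold change 4.30 with SE 0.131, adjusted p = 1.67e-12, Astrocyte against NSC). Flrt1, a membrane protein whose relatives bind Unc5 receptors, rose in Oligodendrocyte (log2 fold change 3.86 with SE 0.21, adjusted p = 8.98e-10), and Dscaml1 rose in Neuron (log2 fold change 3.40 with SE 0.158, adjusted p = 1.36e-10). The largest falls were those of Sdc3 and Chl1 in Astrocyte (log2 fold change −2.18 with SE 0.077, adjusted p = 7.17e-12 and log2 fold change −1.67 with SE 0.106, adjusted p = 3.83e-09) and of Gpc1 in Neuron (log2 fold change −1.57 with SE 0.0851, adjusted p = 7.28e-10).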

How the data were processed

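CPM values per gene and library were deposited by the authors in 1 table (37991 rows, 11 library columns, mouse build mm9 coordinates), per the file headers, made from poly(A)-selected stranded libraries, per the labels' protocols. The submitters' processing notes name TopHat2 2.0.8, HTSeq 0.6.1 and edgeR 3.2.4. The annotation release, read filters and strand setting were not given in the sources used here. Listed genes summed to 74.95% to 80.25% of the full CPM total per library. From the spacing of low values 1 read was worth 0.0151 to 0.0203 CPM. That step was chosen to match the most values under 3 CPM, and with rounding to 2 decimals allowed for it matched 99.85% to 100.0%. Without that allowance 24.0% to 60.6% lay within 0.1 of a whole read. The rounding itself limits this share, so it cannot show whether the values are scaled counts. Counts were not recovered and no count model was used.

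Genes reaching 1 CPM in 2 or more libraries were fitted as log2(CPM + 1) with limma 3.58.1 in R 4.3.3, with 1 mean per group over all 11 libraries and a trended prior (residual degrees of freedom 7, prior 5.96). The pseudocount of 1 understates the change of low genes. The 6 comparisons were two-sided, with Benjamini-Hochberg adjustment over all 13342 genes in each. The fit was tested on simulated data. Guidance genes were chosen by symbol, and 73 of 76 rows were matched to GENCODE M21 exon lengths for values per kilobase. Family sums per kilobase leave out Ntn3, which had no length. Values in every library are given for the 4 largest called rises and falls in each comparison (a group mean of 2 CPM or more, no overlap between groups), for the most abundant member of each family, and for members called in opposite directions against NSC. The members and lists were chosen with earlier results of these data known. Alternatives were other pseudocounts, filters, scalings, variance settings, samples in the fit, a replicate block and leaving out each library. 1 gene of the pathway lists is not reported here.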

Additional observations from a re-analysis of the deposited data

Results flagged for a closer look

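Unc5b was singled out because its changes against NSC had opposite signs in a pair of media, each called at least 2-fold by limma. Its log2 fold change was −1.10 in Astrocyte (adjusted p = 1.14e-07) and 2.26 in Oligodendrocyte (adjusted p = 2.26e-10). The direct comparison of Oligodendrocyte with Astrocyte gave 3.36, and all 3 Astrocyte libraries lay below all 3 NSC libraries, which lay below both Oligodendrocyte libraries.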

How the results depend on the processing

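All 116 guidance gene calls of at least 2-fold remained called in the same direction under every alternative in which the gene was tested, and 245 of all 303 calls did. Another 8 calls, all against NSC and none at least 2-fold, changed sign with quantile normalization. Counts at 2-fold moved with the pseudocount. With 0.1 they became 15 for Astrocyte against Neuron (9 with a pseudocount of 1), 23 for Oligodendrocyte against Neuron (14) and 16 for Oligodendrocyte against Astrocyte (10). With 5 they became 15 for Astrocyte against NSC (26) and 19 for Oligodendrocyte against NSC (29). A smaller pseudocount enlarges the fold change of low genes by construction. Quantile normalization gave 15 for Astrocyte against Neuron, and the cause was not tested. The split of all calls moved with it from 25 higher and 24 lower to 18 and 28 there, and from 37 and 15 to 30 and 23 for Oligodendrocyte against NSC.

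Whether replicate numbers pair the libraries could not be settled, since deviations were taken from the means of groups of only 3 or 2 libraries. Of 15 same-numbered pairs, 6 had deviations correlated above 0.1 (range −0.505 to 0.415). Of 11 libraries, 5 correlated best with a library of their own number. Differently numbered libraries also had correlated deviations, from −0.536 (NSC 3 with Neuron 1) to 0.541 (NSC 3 with Neuron 2). A block by replicate number does not account for these, and their cause was not tested. With the replicate block, 55, 50, 52, 48, 50 and 44 genes were called, against 55, 50, 52, 49, 52 and 45 without it. At 2-fold, 26, 28, 29, 9, 14 and 11 were called with the block, in the order Astrocyte, Neuron and Oligodendrocyte against NSC, Astrocyte against Neuron, and Oligodendrocyte against Neuron and against Astrocyte. The Sema5a call between Oligodendrocyte and Neuron was among those lost with the block. The Oligodendrocyte group had 2 libraries, and leaving out 1 of them assumes that the other varies like the remaining groups.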
